A study of Homo sapiens with 9 samples.

Results

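PVRL4 siRNA 2, an siRNA against the nectin-4 gene, was set against a control siRNA in SKBR3 cells, an established human breast cancer line with an amplified ERBB2 (HER2) gene. The comparison takes the 3 siRNA 2 libraries and the 3 control libraries of 9 in the series, paired by replicate number, and the 11097 of 20812 genes whose level averaged 1 RPM or more across these 6 (RPM is a gene's reads scaled to a common library size). The 3 remaining libraries received siRNA 1, a second PVRL4 siRNA, and serve here for the spread between libraries and for the differences between the siRNAs. Cells of all groups were transfected with 10 nM siRNA by a lipid reagent and taken after 48 h. siRNA 2 and siRNA 1 were bought from Integrated DNA Technologies, whereas the control was an ON-TARGETplus siRNA of Horizon Discovery. Supplier therefore cannot be told apart from group, and no siRNA sequence is given in the sources used here. The series concerns the regulation of PVRL4 by FOS family proteins. Nothing in the labels says that replicates are cultures of their own; the p-values cover only the spread among these libraries, which may be technical. In such bulk libraries, fewer cells of a type and less RNA per cell cannot be told apart.

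PVRL4 (NECTIN4 in current annotation) encodes an immunoglobulin-like adhesion molecule of epithelial cells that binds other nectins on neighbouring cells and is tied to actin by afadin. An antibody-drug conjugate against nectin-4 is used in urothelial cancer. An siRNA is a short duplex, 1 strand of which guides the Argonaute protein to a matching messenger RNA and has it cut. The same strand can also lower other transcripts whose 3′ untranslated region (3′ UTR) matches only the few bases near its 5′ end, called the seed, as microRNAs do.

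Each library held 10017130 to 10555367 reads, and 1 read was worth 0.0947 to 0.0998 RPM. ERBB2 and the epithelial markers KRT19 and EPCAM were high in all 6 libraries. ERBB2 was at 549 to 734 RPM with siRNA 2 and 710.2 to 871 RPM in control, KRT19 at 4616 to 5298 RPM with siRNA 2 and 5793 to 6016 RPM in control, and EPCAM at 463 to 547 RPM with siRNA 2 and 463 to 489 RPM in control. Of 12 leukocyte markers 1 reached the 1 RPM mean, of 10 fibroblast markers 1, of 8 endothelial markers 2 and of 6 adipocyte markers 0.

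PVRL4 was lower in every siRNA 2 library than in every control library. It was at 3.39, 2.91 and 2.58 RPM with siRNA 2, against 9.93, 7.86 and 11.6 RPM in control, from 27 to 34 reads per siRNA 2 library and 83 to 118 per control library. The 2 groups did not overlap. The means were 2.96 ± 0.411 RPM with siRNA 2 and 9.81 ± 1.89 RPM in control (SD, n = 3 each), so that 30.2% of the control level remained, a log2 change of -1.44 ± 0.17 (SE; 95% confidence interval -1.80 to -1.08; limma adjusted p = 9.30e-05). By exact permutation of the 6 libraries the two-sided p was 0.1, the smallest that 3 against 3 allow. With siRNA 1 PVRL4 was at 5.99, 4.36 and 4.67 RPM, and the level with siRNA 2 lay below it (-0.60, adjusted p = 0.0364). All log2 changes were computed from log2(RPM + 1), which understates the change of low genes.

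Most of what changed with siRNA 2 fell. Of the 11097 genes, 346 (3.12%) were lower and 55 (0.496%) higher at a limma adjusted p under 0.05 with the replicate block, so that 86.3% of the 401 called genes were lower (269 lower and 85 higher by DESeq2). Changes were moderate: the median change of the called genes was 0.53 in size for the lower and 0.504 for the higher ones, and 12 lower and 2 higher genes passed 1 on the log2 scale. Median control levels were 55.7 RPM for the lower and 52.1 RPM for the higher genes, against 26.2 RPM for all tested genes. The shares over all tested genes that stand beside gene lists below are not matched for level. All 346 lower and all 55 higher genes moved the same way in the 3 pairs. A call from a fit on these pairs all but requires this, so nothing is read from it. Without the block, 72 genes (0.649%) were lower and 4 (0.036%) higher. When each of the 9 libraries was left out in turn, 92 of the lower and 6 of the higher genes were called every time. The lower counts were 157, 154 and 149 without control 1, 2 and 3 and 223 without siRNA 2 replicate 2. The higher counts were 15, 23 and 23 without control 1, 2 and 3 and 31 and 30 without siRNA 2 replicates 1 and 2. The 2 groups did not overlap for 294 of the 346 lower genes and for 47 of the 55 higher ones; over all tested genes the siRNA 2 libraries lay wholly below control for 8.97% and wholly above for 5%.

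**Figure D1:**
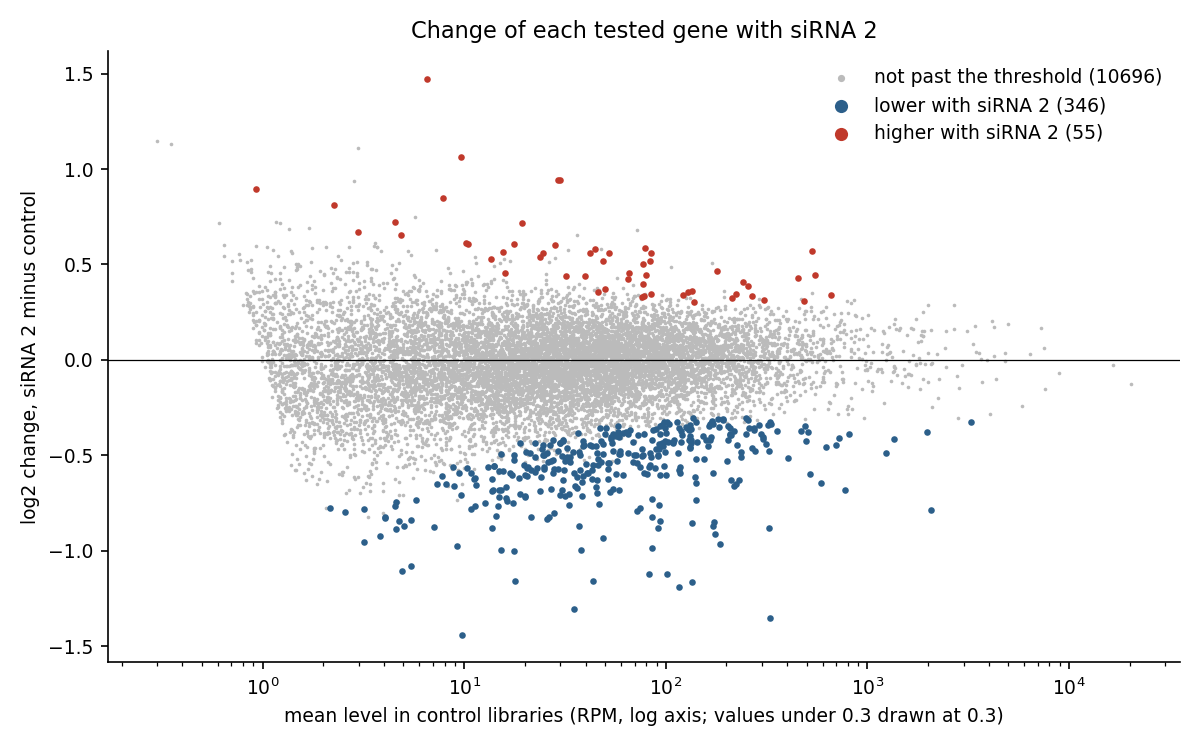
Log2 change with siRNA 2 against control (vertical axis) by mean control level (horizontal axis, RPM, logarithmic) for each of the 11097 tested genes, 1 point a gene. The 346 lower genes (blue) outnumber the 55 higher genes (red), and both lie across most of the range of levels.

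The called genes were also set against siRNA 1. For 270 of the 346 lower and 33 of the 55 higher genes the difference between siRNA 2 and siRNA 1 itself passed the threshold, and over all tested genes it did for 9.16% in either direction. The genes were chosen on the same siRNA 2 libraries that enter this difference, so nothing is read from these shares over the list. With siRNA 1 against the same 3 control libraries, 4 of the 346 were lower and 2 of the 55 higher past the threshold, and over all tested genes 0.649% were lower and 0.829% higher.

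The deepest falls among genes averaging 10 RPM or more were in enzymes, carriers and regulators of several unrelated processes. HIBADH, the dehydrogenase of 3-hydroxyisobutyrate in valine breakdown, was at 85.3, 150.1 and 164 RPM with siRNA 2, against 307, 329.7 and 348 RPM in control. The siRNA 2 libraries lay below every control library, with replicate 1 the lowest, and the log2 change was -1.35 ± 0.11 (SE, adjusted p = 2.62e-06). With siRNA 1 HIBADH was at 247, 332 and 337 RPM. PVRL2 (NECTIN2), a nectin of many cell types, was at 13.6, 16.7 and 10.9 RPM with siRNA 2, against 32.5, 36.5 and 35.7 RPM in control. That is 39.3% of the control level (-1.30 ± 0.13, adjusted p = 9.92e-06), with no overlap. PVRL2 was at 37.9, 34.6 and 33.9 RPM with siRNA 1, and the siRNAs differed by -1.33 (adjusted p = 4.67e-06).

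SLC25A24, which carries ATP-magnesium and phosphate across the inner mitochondrial membrane, was at 50.1, 44.9 and 56.8 RPM with siRNA 2, against 124, 117 and 108 RPM in control. The siRNA 1 libraries, at 117, 107 and 126 RPM, overlapped the control libraries and the siRNA 2 libraries did not (-1.19 ± 0.10, adjusted p = 2.52e-06). MPHOSPH6, a cofactor of the RNA exosome, was at 49.9, 74.9 and 55.7 RPM with siRNA 2, against 123, 145 and 135 RPM in control. Each siRNA 2 library was below every control library, and MPHOSPH6 fell by 1.16 on the log2 scale. LCLAT1, an acyltransferase that remodels cardiolipin and phosphatidylinositol, was at 44.1, 54.3 and 41.5 RPM with siRNA 2, against 104, 102 and 100.05 RPM in control. AIDA, an axin-binding protein, was at 32.8, 42.5 and 37.9 RPM with siRNA 2, against 81.5, 77.8 and 89.3 RPM in control. The changes were -1.12 ± 0.10 and -1.12 ± 0.10, and the 3 control values of LCLAT1 lay within 4 RPM of each other.

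A further 9 of the 16 lower genes that the naming rule took fell by 0.88 to 1.16. Among enzymes of the secretory pathway, the galactosyltransferase gene B4GALT4 averaged 7.50 ± 0.991 RPM with siRNA 2 and 17.9 ± 1.92 RPM in control and PIGM, the first mannosyltransferase of GPI anchor synthesis, 8.39 ± 2.24 RPM with siRNA 2 and 17.6 ± 2.91 RPM in control (SD, n = 3 each). Among regulators of transcription and DNA, NCOA3, a coactivator of steroid receptors, averaged 96.04 ± 15.8 RPM with siRNA 2 and 187 ± 7.66 RPM in control, the zinc finger gene ZNF24 18.4 ± 1.37 RPM with siRNA 2 and 38.2 ± 8.71 RPM in control, and TDG, the thymine DNA glycosylase, 95.1 ± 28.7 RPM with siRNA 2 and 175 ± 11.6 RPM in control (SD, n = 3 each). TDG has processed pseudogenes that its amplicon may not separate. The actin-binding profilin gene PFN2 averaged 25.3 ± 5.16 RPM with siRNA 2 and 48.99 ± 8.69 RPM in control, the ubiquitin-binding gene ANKRD13A 43.6 ± 13.6 RPM with siRNA 2 and 85.5 ± 18.6 RPM in control, KLHDC5, an adaptor of a cullin ubiquitin ligase, 7.13 ± 1.90 RPM with siRNA 2 and 15.2 ± 3.14 RPM in control, and AQP3, a water and glycerol channel, 51.2 ± 18.8 RPM with siRNA 2 and 91.4 ± 15.2 RPM in control (SD, n = 3 each). The naming rule took only genes whose siRNA 2 and control libraries did not overlap. In all 16 genes the call held with each of the 9 libraries left out and by edgeR. The difference from siRNA 1 also passed the threshold in all 16, but it uses the siRNA 2 libraries on which they were chosen. Without the block AQP3 was at adjusted p = 0.105 and the other 15 passed.

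**Figure D2:**
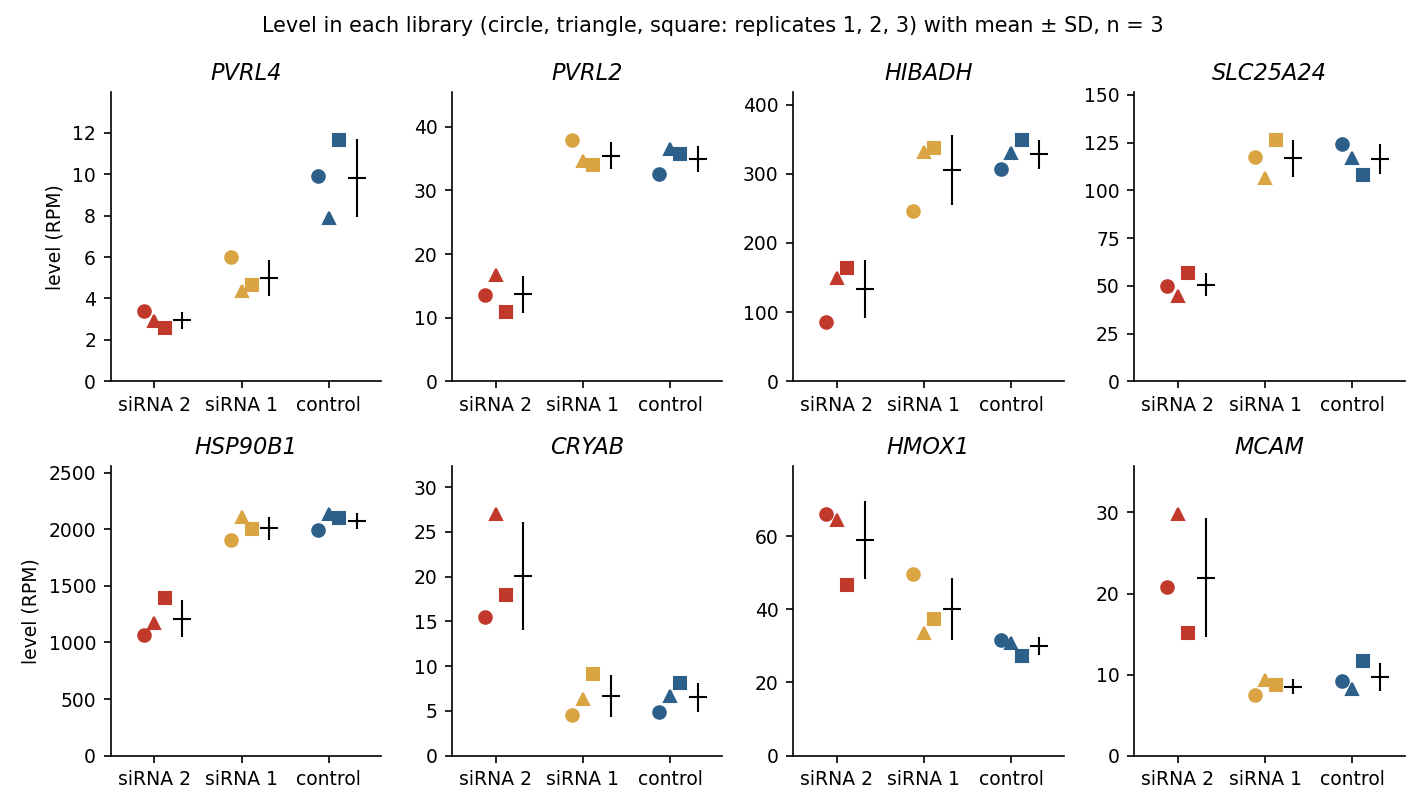
Level in RPM (vertical axes, from 0) of 8 genes in each library of siRNA 2, siRNA 1 and control, with the mean and SD of 3 libraries beside the points. PVRL4 is intermediate with siRNA 1, whereas PVRL2, HIBADH, SLC25A24 and HSP90B1 are lower and CRYAB and MCAM higher in the siRNA 2 libraries than in all others, and HMOX1 has its highest mean with siRNA 2.

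Fewer genes rose, and the largest rise among the named genes was that of CRYAB, a small heat shock protein. CRYAB was at 15.5, 26.9 and 17.9 RPM with siRNA 2, against 4.87, 6.63 and 8.08 RPM in control. The lowest siRNA 2 library was nearly 2 times the highest control library, and the log2 change was 1.47 ± 0.17 (SE, adjusted p = 9.04e-05). MCAM, the adhesion molecule CD146, was at 20.9, 29.8 and 15.2 RPM with siRNA 2, against 9.16, 8.24 and 11.6 RPM in control (1.07 ± 0.19, adjusted p = 0.0034). HMOX1, heme oxygenase 1, was at 65.9, 64.4 and 46.7 RPM with siRNA 2, against 31.7, 30.9 and 27.2 RPM in control (0.94 ± 0.12, adjusted p = 0.000158). PHLPP2, a phosphatase that acts on AKT, was at 114, 127 and 115 RPM with siRNA 2, against 86.7, 73.5 and 75.9 RPM in control (0.59 ± 0.10, adjusted p = 0.00343). For these 4 genes, named by a rule that asks for no overlap between the groups, the calls held without the block and with each library left out. The siRNAs differed for each of the 4 (adjusted p = 4.46e-05 for CRYAB, 0.000534 for MCAM, 0.0065 for HMOX1 and 0.0271 for PHLPP2). That difference uses the siRNA 2 libraries on which the genes were chosen.

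A further 5 of the 10 higher genes that the rule named lost their calls under some alternatives. NPM3, a nucleoplasmin family chaperone, was at 48.2, 58.3 and 53.4 RPM with siRNA 2, against 31.5, 15.9 and 39.9 RPM in control, so that control 2 is far below the other control libraries. SNORA7B, a small nucleolar RNA whose amplicon may not be told apart from its host transcript, was at 13.7, 13.3 and 16.9 RPM with siRNA 2, against 5.82, 6.92 and 10.8 RPM in control, and with siRNA 1 it also rose (0.73, adjusted p = 0.0259). NFE2L3, a transcription factor related to NRF2, averaged 32.2 ± 2.92 RPM with siRNA 2 and 19.3 ± 3.71 RPM in control. SCML2, a polycomb group gene, averaged 16.6 ± 3.32 RPM with siRNA 2 and 10.5 ± 1.54 RPM in control and the small heat shock gene HSPB7 44.4 ± 11.3 RPM with siRNA 2 and 28.3 ± 0.918 RPM in control (SD, n = 3 each). Without the block their adjusted p lay between 0.0553 (NFE2L3) and 0.23 (SCML2). With a library left out (adjusted p in brackets) NPM3 lost its call without siRNA 2 library 2 (0.0848), SNORA7B without control library 1 (0.0675) and NFE2L3 without control libraries 1 (0.0778) and 3 (0.0623). SCML2 lost it without siRNA 2 libraries 1 (0.145) and 2 (0.09) or control libraries 1 (0.178) and 2 (0.135), and HSPB7 without siRNA 2 libraries 1 (0.145) and 2 (0.153) or control libraries 1 (0.126) and 2 (0.176).

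**Figure D3:**
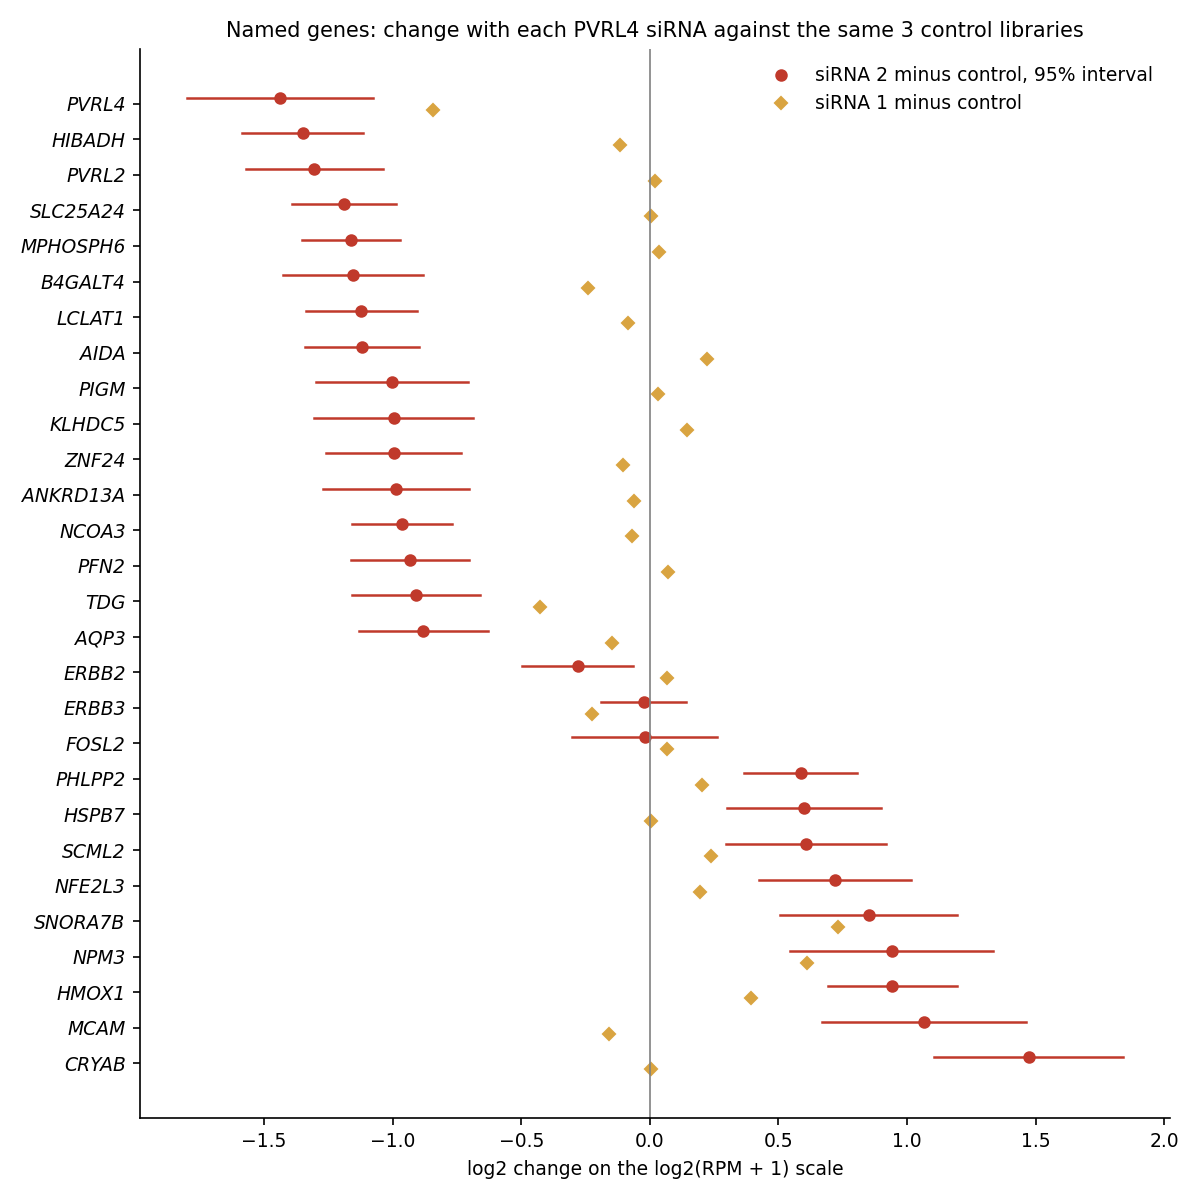
Log2 change (horizontal axis) of PVRL4, 15 lower and 9 higher named genes, ERBB2, ERBB3 and FOSL2 with siRNA 2 against control (red, with 95% confidence interval) and with siRNA 1 against the same control libraries (yellow, interval not drawn). PVRL4 lies below 0 with both siRNAs, and the 15 lower genes lie between -1.35 and -0.88 with siRNA 2 and between -0.43 and 0.22 with siRNA 1.

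The sequences of the lower transcripts shared a short word. All 4096 words of 6 letters were counted on the sense strand of the 3′ UTR of 1 coding transcript per gene (GENCODE 29, GRCh38), for the 10307 tested genes that could be matched and had a 3′ UTR of at least 10 bases. The word was found by searching these data, so its shares are a description with no test. GGTCAC was the word whose share differed most: 167 of 337 lower genes (49.6%) held it, against 20.7% of the other genes and 21.7% of all. It was in 5 of the 52 higher genes (9.62%), and in 21 of 68 genes lower with siRNA 1 (30.9%). The next words by the same measure overlap it or one another: AGGTCA (57.9% of the lower genes against 29.6% of the others), CAGGTC (45.7% against 23.2%) and GTCACT (49.9% against 28.9%). The fifth, TCCCTT, is a different word (61.7% against 41.1%).

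The share of lower genes was larger with 1 or more copies than with 0, and was not highest in the class with most copies. The word was chosen on these same lower genes, which favours a larger share with it, so nothing is read from that difference. Among genes with 0, 1, 2 and 3 or more copies of GGTCAC in the 3′ UTR, 2.11%, 6.78%, 9.68% and 8.7% were lower with siRNA 2, with 8075, 1637, 434 and 161 genes in the 4 classes. The median log2 changes of these classes were -0.0085, -0.061, -0.11 and -0.12 with siRNA 2, against -0.022 over all tested genes. With siRNA 1 against the same controls they were 0.013, 0.0089, 0.014 and -0.021. For siRNA 2 minus siRNA 1, which does not use the control libraries, they were -0.021, -0.079, -0.13 and -0.074. That difference still uses the siRNA 2 libraries on which the word was chosen. Among genes with TCCCTT but no GGTCAC 3.4% were lower, with GGTCAC but no TCCCTT 7.05%, with both words 7.73% and with neither 1.39%.

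**Figure D4:**
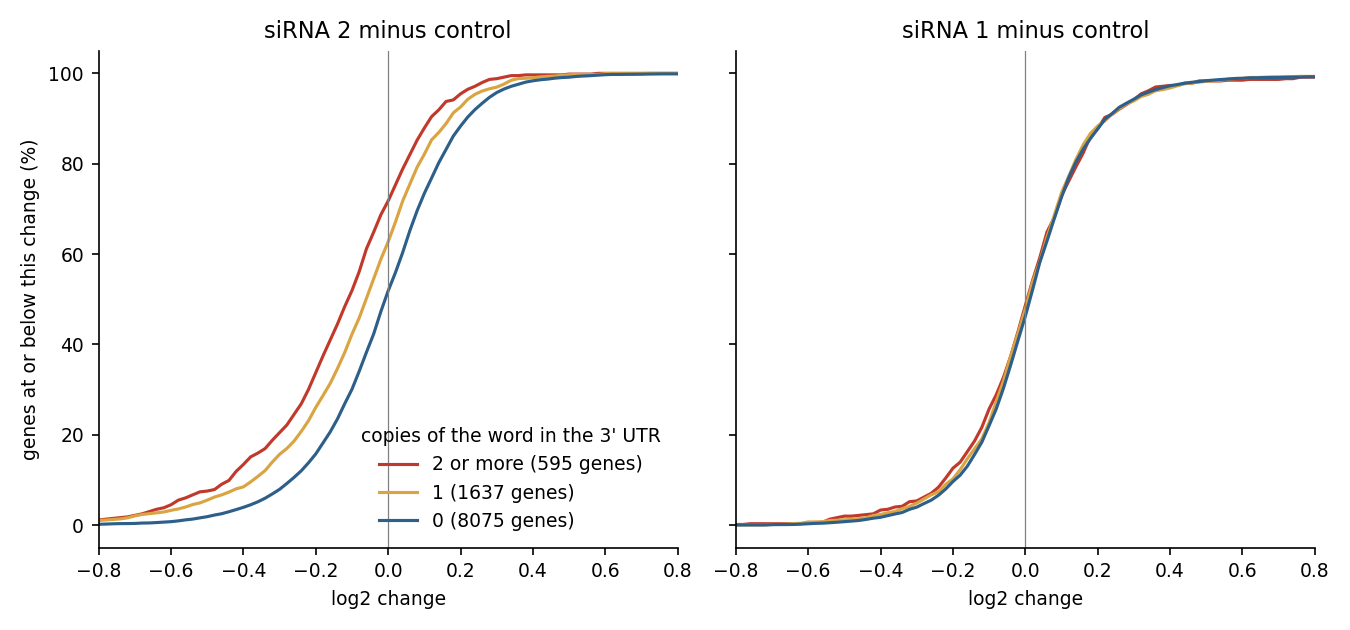
Cumulative share of genes (vertical axis, %) at or below each log2 change (horizontal axis) for genes with 2 or more, 1 or 0 copies of the word GGTCAC in the 3′ UTR, with siRNA 2 (left) and siRNA 1 (right) against the same control libraries. With siRNA 2 the medians of the curves lie lowest for 2 or more copies, then 1, then 0, the median of 1 copy being -0.061 and of 0 copies -0.0085, and lie close together with siRNA 1.

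UTR length and place in the transcript moved with this pattern too. The top word and the fifth were picked for their excess in the 3′ UTRs of these same lower genes. That choice favours them within length bands, over copies before the 3′ UTR and over reversed letters that were not picked. The shares below are therefore a description with no test, and the cause of the pattern was not tested. Lower genes had longer 3′ UTRs, with a median of 1868 bases against 871 for the higher genes and 1122 for all, and longer UTRs hold any word more often. Within each of 5 length bands a larger share of the genes with GGTCAC was lower: 5.04% against 1.2% without it under 500 bases, 8% against 2.16% from 500 to 1000, 8.81% against 2.48% from 1000 to 2000, 8.84% against 2.86% from 2000 to 4000, and 5.14% against 3.49% above. The first of those bands holds 6 lower genes with the word. Genes with the word only before the 3′ UTR were lower in 1.97% of cases, against 2.16% of genes with the word nowhere in the transcript. Their median log2 change was nonetheless lower, at -0.037 against 0.0061, with -0.022 over all genes with a 3′ UTR. The same letters in reverse order, CACTGG, marked genes of which 4.33% were lower, against 7.48% with GGTCAC and 3.27% of all genes with a 3′ UTR. For the fifth word the 2 shares were close, with 4.31% for the reversed letters TTCCCT and 4.83% for TCCCTT.

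PVRL4 itself holds both words in 1 stretch of its coding region. There GGTCAC is on the sense strand, and TCCCTT is on the other strand, so that AAGGGA is read on the sense strand 6 bases before it. Along the whole PVRL4 transcript GGTCAC starts at positions 1284 and 2034 on the sense strand and 844 and 2245 on the other strand, and TCCCTT at 1849 on the sense strand and 1272 and 3346 on the other, counted from the transcript's 5′ end. The stretch at 1272 and 1284 was picked for printing because both words lie in it. The sites are shown because they place the word in PVRL4 and in the genes that fell most; capitals mark GGTCAC and, in the first, also AAGGGA. The first is coding sequence in exon 5 and the other 7 are 3′ UTR sites, 30 bases each, from GENCODE 29 transcripts in GRCh38 coordinates.
PVRL4, chr1:161074619-161074648, minus strand: ctcctcAAGGGAttctcaGGTCACtgtgga
PVRL4, chr1:161072452-161072481, minus strand: tctcccaccatgcatgcaGGTCACtgtgtg
HIBADH, chr7:27526104-27526133, minus strand: gatttaatcaaaGGTCACctatctgctttt
SLC25A24, chr1:108136502-108136531, minus strand: gatggtaacaatGGTCACttcaaacttttg
LCLAT1, chr2:30640999-30641028, plus strand: ctggactgcccaGGTCACctcattgaggtg
PIGM, chr1:160030220-160030249, minus strand: ggtgggaataaaGGTCACatattggaaaat
ANKRD13A, chr12:110037814-110037843, plus strand: tattggcttgcaGGTCACatttttactacc
PFN2, chr3:149966097-149966126, minus strand: aaccctaattatGGTCACaatgctaccaaa
HIBADH, LCLAT1 and PIGM hold 2 copies each in the transcript used and the other 4 UTRs shown hold 1. Of the 16 named lower genes 15 had a 3′ UTR to search, and 7 of them held GGTCAC, the seventh being ZNF24. PVRL2, MPHOSPH6, B4GALT4, AIDA, NCOA3, TDG and AQP3 were among those that did not hold it in theirs, AIDA and TDG holding TCCCTT. MPHOSPH6, AIDA, TDG and AQP3 held the overlapping words CAGGTC and AGGTCA, and PVRL2, B4GALT4 and NCOA3 held neither. The 3′ UTR of NCOA3 in the transcript used has only 202 bases. Without the sequence of siRNA 2, the part of seed matches in these falls was not tested.

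Among adhesion genes the falls of PVRL4, the target, and PVRL2 were the 2 calls of 7 tested nectins, nectin-like molecules and partners (28.6%, against 3.12% of all tested genes). That share counts the target itself, so nothing is read from it about the family. PVRL1, PVR, CADM1 and MLLT4 (afadin) averaged 34.8, 115, 168 and 51.6 RPM with siRNA 2 and 35.02, 109.5, 166 and 56.2 RPM in control. Of 22 cadherin, catenin and tight junction genes 2 fell (9.09%). They were the junctional adhesion molecule gene F11R, at 262 RPM with siRNA 2 and 328 RPM in control (-0.32, adjusted p = 0.0212), and the scaffold gene TJP1, at 23.8 RPM with siRNA 2 and 32.3 RPM in control (-0.46, adjusted p = 0.0303). Neither passed without the block (0.163 and 0.582). F11R lost its call without siRNA 2 libraries 1 (0.0679) and 2 (0.0943) or control libraries 1 (0.126), 2 (0.105) and 3 (0.0671), and TJP1 without siRNA 2 libraries 1 (0.0652), 2 (0.0702) and 3 (0.125) or control libraries 2 (0.112) and 3 (0.263); edgeR gave F11R 0.0568.

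Against control, ERBB2, ERBB3 and the AP-1 genes did not pass the threshold. ERBB2 was at 712, 734 and 549 RPM with siRNA 2, against 710.2, 871 and 832 RPM in control (-0.28, adjusted p = 0.161), so that the groups overlapped. It passed without siRNA 2 library 1 (ERBB2 log2 change -0.43, adjusted p = 0.0293), and it was lower with siRNA 2 than with siRNA 1 (-0.35, adjusted p = 0.0428). ERBB3, its kinase-impaired partner, was at 129, 151 and 170.3 RPM with siRNA 2, against 135, 147 and 176 RPM in control (-0.02, 0.917), and its sign turned under median-of-ratios scaling. Of 13 ERBB receptor and ligand pathway genes 1 fell (7.69%, against 3.12% of all tested genes). It was the docking protein gene GAB1, at 36.6, 41.4 and 39.2 RPM with siRNA 2, against 62.04, 50.5 and 58.5 RPM in control (-0.53, 0.00635, and 0.0553 without the block). GAB1 lost its call without siRNA 2 library 1 (0.0519) or control libraries 1 (0.0675) and 3 (0.0584). Of 8 AP-1 genes limma, edgeR and DESeq2 called 0 (1 lower and 1 higher at an unadjusted limma p under 0.05); FOSL2, a FOS family member, was at 23.4, 20.1 and 16.7 RPM with siRNA 2, against 18.1, 24.1 and 18.7 RPM in control (-0.02, 0.959), with a sign that turned under median-of-ratios, TMM and quantile scaling. FOS, FOSB, FOSL1 and JUN averaged under 1 RPM and were not tested. JUNB was at 18.1 RPM with siRNA 2 and 23.5 RPM in control (-0.42, 0.19) and ATF3 at 10.1 RPM with siRNA 2 and 7.66 RPM in control (0.36, 0.264). Of 16 immediate early and ERK feedback genes 1 fell (6.25%, against 3.12% of all tested genes). It was the phosphatase gene DUSP4, at 31.1, 77.2 and 38.7 RPM with siRNA 2, against 50.8, 99.5 and 57.1 RPM in control (-0.53, 0.00589). DUSP4 was highest in replicate 2 of both groups and lower with siRNA 2 in each pair, and lost its call without the block (0.641) and without control library 1 (0.0574).

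Genes of protein folding in the endoplasmic reticulum (ER) fell in part. Of 25 ER chaperones and oxidoreductases 3 fell (12%, against 3.12% of all tested genes) and 0 rose, with a median of -0.09 against -0.022 for all tested genes. HSP90B1, the ER-resident HSP90 chaperone, was at 1068, 1175 and 1392 RPM with siRNA 2, against 1997, 2131 and 2097 RPM in control, with no overlap. It fell by 0.78 ± 0.09 (SE, adjusted p = 4.16e-05), against -0.05 with siRNA 1. Its 3′ UTR holds 1 copy of GGTCAC, that of TXNDC5 3 copies and that of TRIB3 1. Those of CRELD2, EDEM1, ERLEC1, EDEM3 and CREB3L2 hold TCCCTT but not GGTCAC, and those of TXNDC5 and TRIB3 hold both. CRELD2, a secreted ER stress protein, was at 48.02, 51.6 and 54.95 RPM with siRNA 2, against 82.4, 77.9 and 73.9 RPM in control (-0.59, 0.00158). The protein disulfide isomerase gene TXNDC5 was at 228 RPM with siRNA 2 and 298 RPM in control (-0.39, 0.0144; 0.099 without the block) and lost its call without siRNA 2 library 3 (0.0591) or control libraries 1 (0.0835), 2 (0.0618) and 3 (0.095). HSP90B1 also has processed pseudogenes.

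Of 19 genes of ER-associated degradation 3 fell (15.8%, against 3.12% of all tested genes) and 0 rose (median -0.11). EDEM1, which hands misfolded glycoproteins on for degradation, was at 51.2, 69.5 and 64.4 RPM with siRNA 2, against 91.7, 98.4 and 90.8 RPM in control (-0.60, 0.00145). The lectin gene ERLEC1 (-0.32, 0.0364) and EDEM3 (-0.40, 0.0367) did not pass without the block (0.342 and 0.16) or by edgeR (0.0742 and 0.0513). ERLEC1 lost its call without siRNA 2 libraries 1 (0.096), 2 (0.119) and 3 (0.0564), siRNA 1 libraries 2 (0.0557) and 3 (0.0573) or control libraries 1 (0.157), 2 (0.0951) and 3 (0.17), and EDEM3 without siRNA 2 libraries 1 (0.0611) and 2 (0.22), siRNA 1 libraries 2 (0.0508) and 3 (0.0548) or control libraries 1 (0.121), 2 (0.242) and 3 (0.0624). Of 16 sensors and factors of the unfolded protein response 2 fell (12.5%, median -0.16): TRIB3, a pseudokinase, at 311, 451 and 287 RPM with siRNA 2, against 519, 573 and 469.6 RPM in control (-0.60, 0.000552; 0.119 without the block), and CREB3L2, an ER-anchored transcription factor, at 53.6 RPM with siRNA 2 and 76.05 RPM in control (-0.50, 0.019; 0.212 without the block). CREB3L2 lost its call without siRNA 2 libraries 2 (0.0722) and 3 (0.107) or control libraries 1 (0.0503), 2 (0.0831) and 3 (0.17). HSP90B1, CRELD2, EDEM1 and TRIB3 were called with each library left out. TRIB3 was the 1 call of 18 targets of the integrated stress response (5.56%, against 3.12% of all tested genes), whose median was 0.067.

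**Figure D5:**
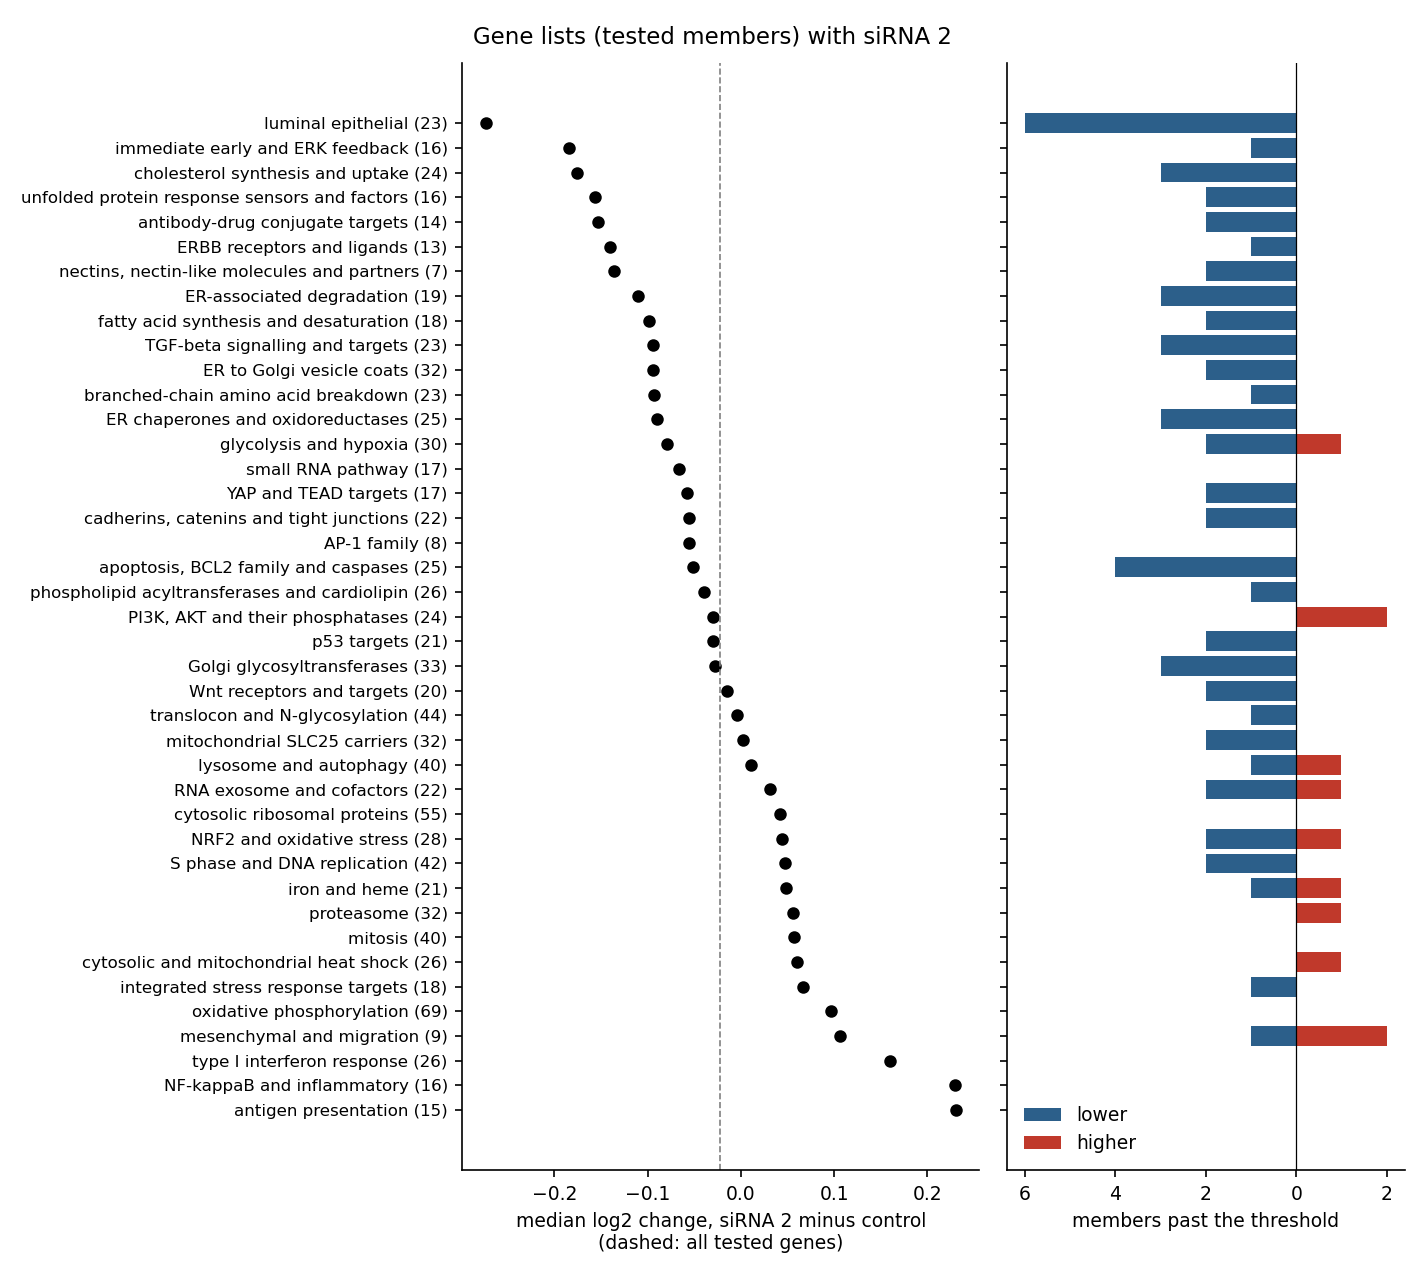
Median log2 change with siRNA 2 against control (left, dots; the dashed line is the median of all tested genes, -0.022) and number of members past the threshold (right; lower in blue to the left, higher in red to the right) for the 41 gene lists with at least 5 tested members, whose number is in brackets. More members fell than rose in 27 lists, more rose in 4, and 8 had none; luminal epithelial genes had the lowest median and the most calls.

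Luminal epithelial genes had the lowest median of the 41 lists with at least 5 tested members. Of 23 tested, 6 fell (26.1%, against 3.12% of all tested genes) and 0 rose; the sign was negative in 20 and the median -0.27. GRHL1, a grainyhead factor of epithelial barrier genes, was at 79.1, 98.1 and 93.1 RPM with siRNA 2, against 135, 143 and 143 RPM in control (-0.64 ± 0.10, 0.00095). EHF, an epithelial ETS factor, was at 26.6, 29.8 and 24.4 RPM with siRNA 2, against 39.3, 44.7 and 38.8 RPM in control (-0.59, 0.00316). AGR2, a disulfide isomerase of secretory epithelium, was at 125, 122 and 104 RPM with siRNA 2, against 189, 166 and 129.8 RPM in control (-0.45, 0.00415). These 3 were called with each library left out and did not overlap between the groups, though without the block EHF was at 0.0503 and AGR2 at 0.267. The keratin gene KRT8, which has many pseudogenes, averaged 1525 ± 158 RPM with siRNA 2 and 1987 ± 276 RPM in control (SD, n = 3 each; -0.38, 0.0143; 0.244 without the block) and lost its call without siRNA 2 library 2 (0.0981) or control libraries 2 (0.115) and 3 (0.102). Over the left-out libraries 3 to 6 members fell, and 1 fell without the block. The list of mesenchymal and migration genes has 20 members, of which 9 reached the 1 RPM mean. VIM, SNAI2, ZEB1, ZEB2, TWIST1 and CDH2 were among those that did not and were not tested. Of the 9 tested genes 2 rose (22.2%, against 0.496% of all tested genes) and 1 fell (11.1%, against 3.12%). The rises were MCAM, given above, and S100A4, a calcium-binding protein, at 625, 679.98 and 1091 RPM with siRNA 2, against 419.6, 536 and 629 RPM in control (0.57, 0.00095, and 0.327 without the block). The fall was the integrin gene ITGB1, at 103 RPM with siRNA 2 and 134 RPM in control (-0.36, 0.0235, 0.21 without the block and 0.0503 by edgeR). S100A4 was higher in each of the 3 pairs although the groups overlapped, and ITGB1 lost its call without siRNA 2 libraries 1 (0.0709) and 2 (0.119) or control libraries 1 (0.136) and 2 (0.159).

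Lipid synthesis genes included 5 falls and no rise. Of 24 genes of cholesterol synthesis and uptake 3 fell (12.5%, against 3.12% of all tested genes). The sign was negative in 21 of them, and the median was -0.18, against -0.022 over all tested genes. INSIG1, which holds the sterol sensor in the ER, was at 30.6, 21.2 and 17.6 RPM with siRNA 2, against 40.8, 35.8 and 28.3 RPM in control (-0.59, 0.00832). Of 18 fatty acid genes 2 fell (11.1%): FASN, the fatty acid synthase, at 1026, 819 and 812 RPM with siRNA 2, against 1255, 1376 and 1087 RPM in control (-0.49, 0.00607), and THRSP, at 5.80 RPM with siRNA 2 and 9.42 RPM in control (-0.59, 0.0406). None of the 5 passed without the block (0.0861 for FASN to 0.468 for THRSP), and edgeR gave THRSP 0.0508. INSIG1 lost its call without control library 2 (0.0978), FASN without siRNA 2 library 2 (0.0697) or control library 2 (0.066), and THRSP without siRNA 2 libraries 2 (0.196) and 3 (0.12), siRNA 1 libraries 2 (0.0557) and 3 (0.053) or control libraries 1 (0.126), 2 (0.211) and 3 (0.114).

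Stress genes outside the ER moved in both directions. Of 26 cytosolic and mitochondrial heat shock genes CRYAB alone passed the threshold, by a rise (3.85%, against 0.496% of all tested genes). The median of that list was 0.061. Of 28 NRF2 and oxidative stress genes HMOX1 rose (3.57%, against 0.496% of all tested genes) and 2 fell (7.14%, against 3.12%). The metallothionein gene MT2A was at 442, 407 and 287 RPM with siRNA 2, against 671, 578 and 510.4 RPM in control (-0.64, 0.000272; 0.16 without the block), while it was higher with siRNA 1 (0.52, 0.00272); other metallothioneins are close in sequence. ABCC3, an exporter of conjugated organic anions, was at 1.90, 1.16 and 2.29 RPM with siRNA 2, against 4.10, 5.50 and 5.22 RPM in control (-1.11, 0.00343). Of 21 iron and heme genes HMOX1 rose (4.76%, against 0.496% of all tested genes) and the iron exporter gene SLC40A1 fell (4.76%, against 3.12%). SLC40A1 was at 28.9, 27.1 and 15.3 RPM with siRNA 2, against 39.1, 39.3 and 36.2 RPM in control (-0.71, 0.00532, with 0.14 without the block and 0.0736 without control library 3). Of 24 genes of PI3K, AKT and their phosphatases 2 rose (8.33%, against 0.496% of all tested genes). They were PHLPP2 and the kinase gene PIK3CB, the latter at 165 RPM with siRNA 2 and 129 RPM in control (0.35, 0.0328, and 0.341 without the block). PIK3CB lost its call without siRNA 2 library 2 (0.217), siRNA 1 library 3 (0.0509) or control libraries 1 (0.0616), 2 (0.234) and 3 (0.103).

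Some apoptosis regulators and p53 targets fell. Of 25 apoptosis genes 4 fell (16%, against 3.12% of all tested genes) and 0 rose. With 1 library left out, 0 (without control library 1 or 2) to 5 (without siRNA 1 library 1) fell. The 4 were BIRC2, an inhibitor of apoptosis, at 43.6, 47.6 and 46.7 RPM with siRNA 2, against 64.04, 68.5 and 62.2 RPM in control (-0.49, 0.00934), the antiapoptotic BCL2L1 at 163 RPM with siRNA 2 and 208 RPM in control (-0.35, 0.0182) and MCL1 at 96.01 RPM with siRNA 2 and 132 RPM in control (-0.45, 0.0492), and the proapoptotic BMF at 7.05 RPM with siRNA 2 and 11.5 RPM in control (-0.65, 0.0396). None of the 4 passed without the block (0.0669 to 0.343), and edgeR gave BMF 0.0604 and MCL1 0.0895. BIRC2 lost its call without siRNA 2 library 1 (0.0578) or control libraries 1 (0.0553) and 2 (0.0938), BCL2L1 without siRNA 2 libraries 2 (0.0822) and 3 (0.0537) or control libraries 1 (0.0958), 2 (0.0978) and 3 (0.0801), BMF without siRNA 2 libraries 1 (0.146), 2 (0.117) and 3 (0.0607) or control libraries 1 (0.246) and 2 (0.167), and MCL1 without siRNA 2 libraries 1 (0.251) and 2 (0.097), siRNA 1 library 3 (0.0602) or control libraries 1 (0.149), 2 (0.247) and 3 (0.113). Of 21 p53 targets 2 fell (9.52%, against 3.12% of all tested genes). MDM2, the ubiquitin ligase of p53, was at 98.6, 105 and 90.4 RPM with siRNA 2, against 155, 131 and 137 RPM in control (-0.52, 0.00264), a call that held without the block and with each library left out. CCNG1 averaged 83.4 RPM with siRNA 2 and 109 RPM in control (-0.42, 0.0328; 0.346 without the block, 0.0649 by edgeR) and lost its call without siRNA 2 libraries 1 (0.106) and 2 (0.214), siRNA 1 library 3 (0.0504) or control libraries 1 (0.191) and 2 (0.206). Of 40 mitosis genes limma, edgeR and DESeq2 called 0 (median 0.056; 2 lower and 2 higher at an unadjusted p under 0.05), and without siRNA 2 library 1 limma called 1 lower. Of 42 S phase genes 2 fell (4.76%, against 3.12% of all tested genes; median 0.048), 1 by edgeR, 1 by DESeq2 and 0 without the block. With 1 library left out, 0 (without siRNA 2 library 1 or control library 1 or 3) to 2 of them fell.

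Interferon genes as a list had a median above 0, with replicate 3 of siRNA 2 the highest for the 2 genes named. The summed level of the 26 tested genes was 1214, 1327 and 1013 RPM with siRNA 2, against 1056, 1192 and 990.9 RPM in control. Of these type I interferon genes limma called 0 (0 lower and 2 higher at an unadjusted p under 0.05), with a median of 0.16. OAS1, a sensor of double-stranded RNA, was at 4.29, 6.40 and 14.4 RPM with siRNA 2, against 2.48, 3.98 and 2.46 RPM in control (1.11, 0.209), and IFIT1 at 0.599, 0.291 and 5.92 RPM with siRNA 2, against 0.0, 0.095 and 0.197 RPM in control (1.15, 0.262). The siRNA 1 libraries, in which OAS1 was at 524, 66.7 and 249 RPM, enter the spread of this fit. In the fit of the 6 libraries alone, chosen to be printed here after seeing the data, 5 of the 26 were higher and 1 lower, with OAS1 at adjusted p = 0.00409 and IFIT1 at 0.0272. Over the left-out libraries 3 were higher without siRNA 1 library 1, and 1 each without siRNA 1 library 2 and siRNA 2 library 1. edgeR and DESeq2 called 0 of the 26 over the 9 libraries. Of 15 antigen presentation genes and of 16 NF-kappaB and inflammatory genes limma, edgeR and DESeq2 called 0, with medians of 0.23 in both. In the fit of the 6 libraries alone 2 antigen presentation genes were higher, as were 2 without siRNA 1 library 1 and 1 without siRNA 1 library 2. At an unadjusted p under 0.05, 1 antigen presentation gene was lower and 6 higher, and 0 and 2 of the NF-kappaB genes.

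In the remaining lists the counts were small. Of 44 translocon and N-glycosylation genes, a further ER list, 1 fell (2.27%, against 3.12% of all tested genes, and 0 without the block). The median of that list was -0.0044. In some other lists the share that fell was near that of the ER lists described above (12% to 15.8%). It was 14.3% for antibody-drug conjugate targets, which include PVRL4 itself, 13% for TGF-beta genes and 11.8% for YAP and TEAD genes. Wnt genes were at 10%, Golgi glycosyltransferases at 9.09% and vesicle coat genes and SLC25 carriers at 6.25%, against 3.12% of all tested genes. Among 14 antibody-drug conjugate targets 2 fell, PVRL4 being 1 of them, and 0 rose; 1 fell without the block and without each control library. Of 32 mitochondrial SLC25 carriers SLC25A24 and SLC25A23, a second ATP-magnesium and phosphate carrier, fell, SLC25A23 at 43.1, 49.03 and 32.2 RPM with siRNA 2, against 64.7, 74.7 and 75.9 RPM in control (-0.79, 0.00104, held without the block and with each library left out). Of 23 TGF-beta genes 3 fell (0 without the block, and 0 without siRNA 2 library 1 or control library 2). Of 33 Golgi glycosyltransferases 3 fell (1 without the block, and 1 without control library 2 or 3). Of 32 vesicle coat genes 2 fell (0 without the block, and 0 without control library 2). Of 17 YAP and TEAD genes 2 fell (0 without the block), and of 20 Wnt genes 2 (1 without the block), with 1 in each list without siRNA 2 library 2 or control library 2 or 3. Among 69 oxidative phosphorylation genes, 55 cytosolic ribosomal protein genes and 17 small RNA pathway genes limma, edgeR and DESeq2 called 0, with medians of 0.096, 0.042 and -0.067. At an unadjusted p under 0.05, 2, 0 and 1 of them were lower and 10, 4 and 0 higher, and without siRNA 2 library 1 limma called 1 oxidative phosphorylation gene higher.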

How the data were processed

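The authors deposited 1 table of RPM values for 20812 genes, made from 100 ng of RNA by Ion AmpliSeq, a targeted assay that reads each gene through 1 short amplicon, per the labels' protocols. The submitters' processing notes name hg19 as the build; the aligner and counting tool are not given in the sources used here. RPM removes differences in total RNA, and amplicon reads carry no molecular identifiers, so read numbers cover counting error only. A close paralog or overlapping transcript that shares an amplicon cannot be told apart from its gene.

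Groups and replicate numbers came from the sample titles. RPM steps gave back whole reads for 100% of values within 0.1 read. The main test was limma 3.58.1 (R 4.3.3) on log2(RPM + 1) with a trended prior variance, the 3 groups sharing the spread and the replicate number as a block, for genes averaging 1 RPM or more across the 6 libraries, two-sided with Benjamini-Hochberg adjustment over all 11097 genes and a threshold of 0.05. Adjusted p-values are limma's unless another tool is named. The numbers pair the samples: deviations from group means correlated at 0.333 to 0.383 in the 3 same-numbered pairs and at -0.332 to -0.0669 in the 6 others. Such deviations cancel within a group, so positive values in the same-numbered pairs force negative ones among the others. Alternatives were no block, 6 libraries, pseudocounts of 0.1 and 5, other filters and scalings, no trend, each library left out, and edgeR 4.0.16 and DESeq2 1.42.0 on the recovered reads. The scripts were tested on simulated data.

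The members, the 47 gene lists and the naming rule were chosen with earlier results of these data known. PVRL4, PVRL2, ERBB2, ERBB3 and FOSL2 were always named; of called genes averaging 10 RPM or more, no overlap and the same sign in 3 pairs, the 16 lower and 10 higher with the largest change; and of each described list up to 4 called genes by adjusted p, or 2 where none passed. The values of some genes that this rule takes are not reported here. For 3′ UTRs, 10405 genes were matched by symbol or gene ID (RefSeq gene table) to GENCODE 29 transcripts in GRCh38, by name and not by coordinate. Figures were drawn with matplotlib 3.10.9.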

Additional observations from a re-analysis of the deposited data

How the results depend on the processing

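The PVRL4 log2 change kept its direction and call under every alternative that gave an adjusted p (-1.695 to -0.89, and -1.54 to -1.27 with 1 library left out); DESeq2 gave it no adjusted p. Against 346 lower and 55 higher genes, the counts were 72 and 4 without the replicate block, 49 and 4 with 6 libraries and no block, 171 and 15 without a filter and 117 and 12 without a trend; DESeq2 called 85 higher. With 1 library left out they were 149 to 379 and 15 to 75. The other settings stayed within 1.5 times of both counts. Of the named genes called against control, 63 differed from siRNA 1, and 31 without the block (48 to 62 with 1 library left out). Over all tested genes 9.16% differed. The named genes were chosen on the same siRNA 2 libraries, so nothing is read from these counts. Median-of-ratios scaling moved the median of all genes to 0.00598 (-0.0221 as deposited). The ERBB3 log2 change (-0.02) was 0.00548 under that scaling, 0.00228 by edgeR, 0.00496 by DESeq2 and, with 1 library left out, -0.0627 to 0.00761 (the last without control library 1). The FOSL2 log2 change (-0.02) was 0.00859, 0.000618 and 0.0223 under median-of-ratios, TMM and quantile scaling, 0.003998 by edgeR, 0.00577 by DESeq2 and, with 1 library left out, -0.194 to 0.0775 (0.077 without siRNA 2 library 2, 0.0567 and 0.0775 without control libraries 2 and 3); the cause was not tested. The share of lower genes with GGTCAC in the 3′ UTR, computed after seeing the data, was 47.7% to 64.3% over the alternatives. PVRL4 rests on 27 to 34 reads per siRNA 2 library, and genes near 1 RPM on few reads.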
